A study of Sus scrofa with 12 samples.

Results

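The genes described here encode the machinery that copies DNA in S phase, together with the enzymes that supply its nucleotides and the regulators that start it. The list holds 43 genes, named by symbol for their role in replication. Of these, 38 were matched to a row among the 21153 genes counted in porcine arterial endothelial cells (ECs). MCM5, GINS2, PCNA, FEN1 and RRM2 had no matching row and were not analysed here. All 38 genes with a row passed the filter on low counts in every comparison.

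Primary ECs came from arteries of 3 pigs aged 8 months, called aortic in the labels and coronary in the methods. No genetic change and no added agent is named for any group, and all cultures were kept in medium with fetal calf serum and heparin on gelatin. Each donor gave 4 cultures that were exposed for 48 h to laminar shear stress: 1 at 2 dyne/cm2 (aneurysmal low), 2 at 30 dyne/cm2 (physiological, named set 1 and set 2 here) and 1 at 80 dyne/cm2 (aneurysmal supra-high). Per the labels, cells were seeded at 30000 per channel for 2 dyne/cm2 and at 100000 per channel in another slide for 80 dyne/cm2, and each slide had its own cultures at 30 dyne/cm2, whereas the methods name 1 slide and 30000 cells for all. The labels do not tie set 1 or set 2 to a slide. The cultures at 2 dyne/cm2 were compared with set 1 and those at 80 dyne/cm2 with set 2. Every group thus holds 3 donors with 1 culture each, and a culture cannot be told apart from its donor within a condition.

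DNA replication starts when the origin recognition complex, CDC6 and CDT1 load the MCM helicase onto DNA in G1. CDC45 and the GINS complex then join the helicase and turn it on at the entry into S phase, and primase, the polymerases and their sliding clamp copy both strands. Many of the genes are transcribed by E2F factors as cells pass from G1 to S, so their transcripts are abundant in dividing cultures and scarce in resting ones. Arterial ECs of an adult vessel divide rarely, and laminar flow is known to hold cultured ECs in G1.

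The libraries held 29606854 to 41058902 gene counts each (median 33871914). The genes of the list had between 39 counts, in POLE2, and 11092 counts, in CDC45, in a single library. The cells carried their endothelial label, but the 8 endothelial markers with a row moved with the conditions: they summed to 4443 to 5637 CPM (a gene's counts scaled to a fixed library total) at 2 dyne/cm2, 6638 to 7774 CPM at 30 dyne/cm2 and 8076 to 8701 CPM at 80 dyne/cm2. Of 7 smooth muscle markers DES, a muscle filament, was at 0 in all libraries, and the list summed to 48.3 to 87.6 CPM, mostly through SMTN. MYOCD, a smooth muscle transcription factor, had a mean of 4.56 CPM at 2 dyne/cm2 and 0.70 CPM in set 1. LMOD1, of the same list, went the other way at 0.97 and 1.92 CPM, and SMTN was at 73.1 and 72.9 CPM. The 5 leukocyte markers summed to 1.94 to 6.21 CPM, of which CD14 had 1.08 to 4.91 CPM, while PTPRC, the pan-leukocyte surface marker, and CD3E, a T cell marker, had no more than 2 counts and 1 count in any library. The summed level of 5 fibroblast markers also moved, at 377 to 1181 CPM at 2 dyne/cm2, 127 to 509.7 CPM at 30 dyne/cm2 and 43.4 to 67.0 CPM at 80 dyne/cm2, mostly through the collagen gene COL3A1. FN1, the fibronectin gene, took at least 5.23% of the counts at 2 dyne/cm2 and 2.47% to 5.98% at 30 dyne/cm2. The part of these markers in the results below was not tested. MCM7, RFC1, RFC4, RFC5 and CCNE2 overlap another protein-coding gene in RefSeq, RFC3, MCM4 and ORC1 a non-coding one and POLE a pseudogene. The sources do not say that strand was used in counting, so reads of overlapping genes cannot be told apart. In a bulk library, fewer cells in S phase and less RNA of these genes per cell cannot be told apart.

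The replication genes as a group lay highest in some cultures at 30 and 80 dyne/cm2 and lowest in others at 80 dyne/cm2. For each library, the median over the 38 genes of log2(CPM + 1), after subtracting each gene's mean over the 12 libraries, was -0.13, -0.05 and -0.38 in donors 1, 2 and 3 at 2 dyne/cm2. It was 0.26, 0.03 and 0.47 in set 1 and 0.17, 0.18 and 0.08 in set 2 at 30 dyne/cm2. At 80 dyne/cm2 it was 0.47 in donor 1, but -0.52 and -0.47 in donors 2 and 3. All 6 libraries at 30 dyne/cm2 were thus above the 3 libraries at 2 dyne/cm2. The 3 libraries at 80 dyne/cm2 held 1 of the highest values and the lowest values of all 12. Summed over the 38 genes, the level ranged from 1110 to 2187 CPM.

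**Figure D1:**
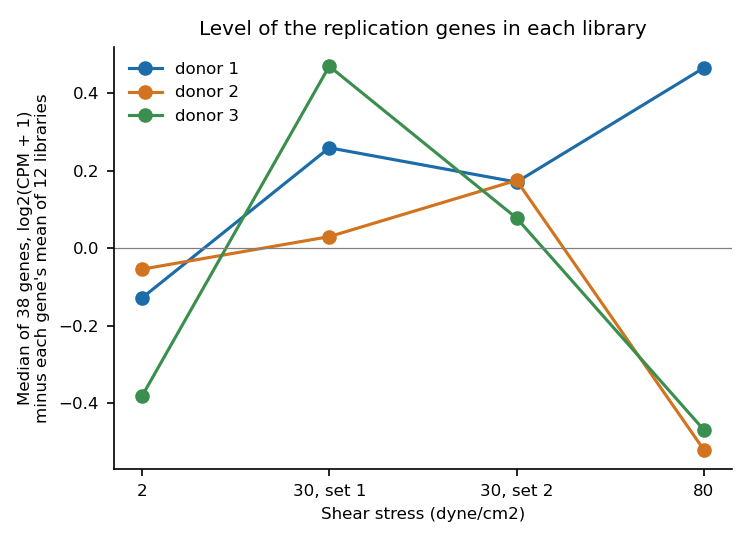
Level of the replication genes in the 12 libraries: the horizontal axis gives the shear stress condition and the vertical axis the median over 38 genes of log2(CPM + 1) after subtraction of each gene's own mean, with 1 point per library and 1 line per donor. The 3 libraries at 2 dyne/cm2 lie between -0.38 and -0.05, the 6 at 30 dyne/cm2 between 0.03 and 0.47, and those at 80 dyne/cm2 at 0.47, -0.52 and -0.47.

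The comparison of 2 with 30 dyne/cm2 asks how low shear stress, as found in a part of aneurysm walls, changes these transcripts. CDC45, RPA2, RFC3 and CCNE2 were down-regulated at 2 vs. 30 dyne/cm2, and none of the 38 genes was up-regulated, against 13.4% of all genes (edgeR quasi-likelihood test with a donor term, adjusted p under 0.05 over all genes). These 4 genes make 10.5% of the 38, and 12.4% of all 11226 genes tested were down-regulated in the same fit, so the share called among the replication genes was close to the background. CDC45 alone fell at least 2-fold, against 4.54% of all genes. At an unadjusted p under 0.05, 14 of the 38 genes were lower, as were 20.5% of all genes.

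The direction was nonetheless shared by nearly the whole list. The log2 fold change was negative for 37 of 38 genes, with a median of -0.43, whereas 49.8% of all genes tested had a negative value and their median was 0.00. POLD2, the second subunit of DNA polymerase delta, was the exception at 0.13 (adjusted p = 0.555). Between the sets at 30 dyne/cm2, where set 1 is also subtracted, the value was negative for 35 of 38 genes as well, with a median of -0.13. In 16 of the 38 genes all 3 libraries at 2 dyne/cm2 were below all 3 of set 1, as were those of 18.9% of all genes. By donor, the median difference of log2(CPM + 1) was -0.37 in donor 1, -0.07 in donor 2 and -0.89 in donor 3 (mean -0.45, SD 0.42, n = 3), beside 0.00, 0.02 and -0.06 over all genes. The genes were lower at 2 dyne/cm2 in 36, 23 and 38 of 38 cases in the 3 donors, and 23 genes were lower in all 3 donors, as were 33.4% of all genes. Donor 2 therefore showed little difference over the list and donor 3 the largest. All 8 endothelial markers were lower at 2 dyne/cm2 in each donor as well, with median differences of -0.61, -0.53 and -0.81, and their part in the difference of the replication genes was not tested.

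The count of calls depended on which culture at 30 dyne/cm2 served as the control. The sets may differ in slide and seeding density, whose part was not tested. With set 2 in place of set 1, 15 genes were down-regulated at 2 dyne/cm2 (CDC45, RRM1, RFC3, CCNE2, GINS1, MCM4, RPA2, MCM6, E2F1, POLA1, MCM7, TYMS, MCM3, RFC2 and MCM2), while 13.0% of all genes were. The median difference was then -0.32, -0.24 and -0.48 in the 3 donors (mean -0.35, SD 0.13), so the donors lay closer together than with set 1. Without the donor term, CDC45 and RPA2 were the 2 genes called, against 5.99% of all genes.

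The comparison of 80 with 30 dyne/cm2 asks the same of supra-high shear stress. None of the 38 genes passed the threshold in either direction at 80 vs. 30 dyne/cm2 in the edgeR fit with the donor term, where 4.04% of all 11187 genes were down-regulated and 4.36% up-regulated. At an unadjusted p under 0.05 there were 9 genes, all lower, as were 12.8% of all genes, and DESeq2 called 1 gene, CCNE2 (adjusted p = 0.0394), and 4.69% of all genes as lower. The log2 fold change was negative for 36 of 38 genes, with a median of -0.31 (-0.01 over all genes tested, of which 50.9% were negative).

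The donors did not move together at 80 dyne/cm2. In donor 1, 35 of the 38 genes were higher at 80 than at 30 dyne/cm2, with a median difference of 0.29 in log2(CPM + 1). In donors 2 and 3, 37 and 38 of the 38 genes were lower, with medians of -0.69 and -0.55. Over all genes tested, the medians of the 3 donors were 0.06, -0.11 and -0.06. The same 35 genes were higher in donor 1 and lower in both other donors, a pattern that 20.7% of all genes had. Of the 3 exceptions, CCNE1 and CCNE2 were lower in all 3 donors, as 27.1% of all genes were, and CDC45 differed by -0.04, 0.03 and -0.17. With set 1 as the control the medians were 0.21, -0.54 and -0.90.

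The number of calls at 80 dyne/cm2 changed with the donors included. When donor 1 was left out, 31 of the 38 genes passed the threshold and all 31 were lower, against 9.45% of all genes; this fit has 2 donors and 1 residual degree of freedom per gene. When donor 2 or donor 3 was left out, 0 genes of the list passed in the same test (1.65% and 0.889% of all genes were lower), and 1 gene was lower at an unadjusted p under 0.05 in each case (9.9% and 8.57% of all genes). Whether donor 1 differs from the others as a pig or as a culture was not tested, since each donor gave 1 culture at 80 dyne/cm2. The median difference of 4 flow markers (KLF2, KLF4, NOS3 and CYP1B1) was 0.24, 0.44 and 0.35 in the 3 donors, and that of 8 endothelial markers 0.19, 0.26 and 0.23. These medians had 1 sign in all donors, but CYP1B1 was lower in donors 1 and 2 and ERG, an endothelial transcription factor, in all 3.

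**Figure D2:**
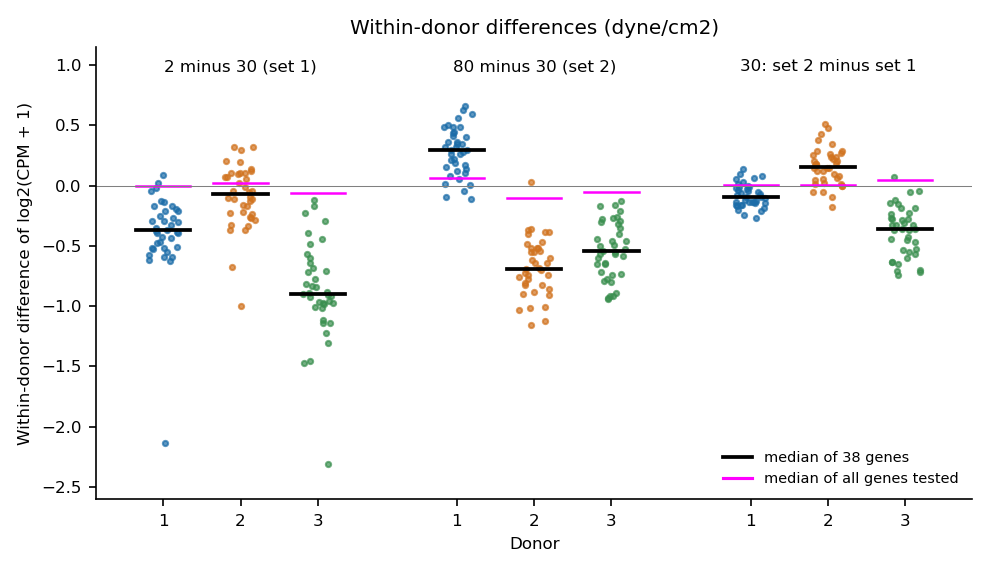
Within-donor differences of log2(CPM + 1) for the 3 comparisons: each point is 1 of 38 genes in 1 donor, black bars are the medians of these genes and magenta bars the medians of all genes tested. At 80 dyne/cm2 the black bar lies at 0.29 in donor 1 and at -0.69 and -0.55 in donors 2 and 3, while at 2 dyne/cm2 it lies below 0 in all 3 donors and near 0 in donor 2.

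The cultures at 30 dyne/cm2 show how far the list moved between cultures of the same donor at the same labelled shear stress. Each slide had its own cultures at 30 dyne/cm2, so the sets may also differ in slide and seeding density. These cannot be told apart from other differences between the cultures. Set 2 minus set 1 had medians of -0.09, 0.16 and -0.36 in the 3 donors (mean -0.10, SD 0.26). The log2 fold change from edgeR was negative for 35 of 38 genes, with a median of -0.13, while 48.7% of all genes were negative. A shared sign in nearly the whole list, as at 2 dyne/cm2 (37 of 38) and 80 dyne/cm2 (36 of 38), thus also arose without a labelled difference in shear stress. The comparison of the sets and that of 2 dyne/cm2 both subtract set 1, so they are not independent. By donor, 30, 4 and 37 of the 38 genes were lower in set 2 than in set 1. Against set 2, the value at 2 dyne/cm2 was negative for 36 of 38 genes, with 34, 35 and 36 lower by donor. No gene of the list was called in either direction by edgeR, where 0.0179% of all genes were lower and 0 were higher; 2 genes of the list were lower at an unadjusted p under 0.05 (8.94% of all genes were), and DESeq2 called 0, against 2.23% of all genes as lower and 1.95% as higher. ORC1 was the 1 gene whose set 2 libraries all lay below set 1, as 3.95% of all genes did. In the same donors, the medians between the sets (-0.09, 0.16 and -0.36) stood beside -0.37, -0.07 and -0.89 at 2 vs. 30 dyne/cm2.

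**Figure D3:**
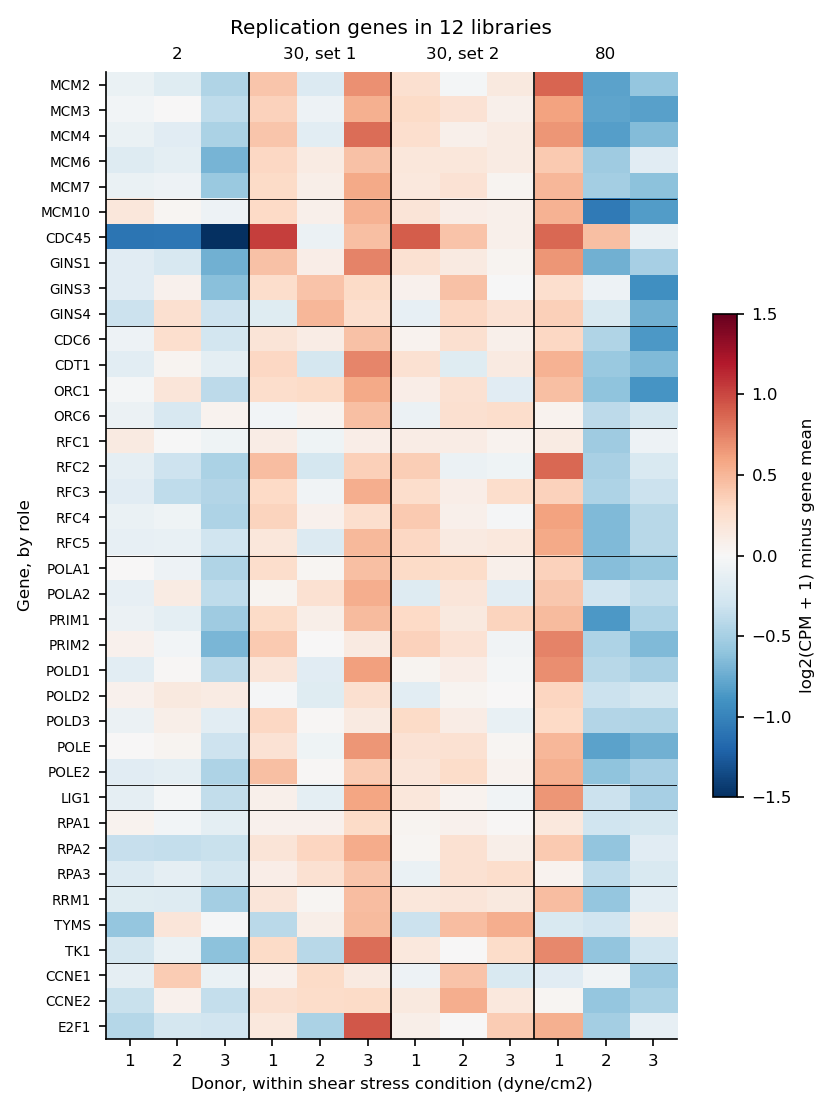
Levels of the 38 genes in 12 libraries, with genes in rows ordered by role and libraries in columns by shear stress and donor. Colour is log2(CPM + 1) minus the gene's mean over 12 libraries, and values beyond 1.5 take the end colour, as for CDC45 in donor 3 at 2 dyne/cm2 (-1.86). Most rows are red in donor 3 of set 1 and in donor 1 at 80 dyne/cm2, and blue in donors 2 and 3 at 80 dyne/cm2 and in donor 3 at 2 dyne/cm2.

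The MCM proteins form the ring-shaped helicase that opens the double strand, and 5 of its 6 subunits had a row. Their log2 fold changes ranged from -0.63 (MCM6) to -0.40 (MCM3) at 2 vs. 30 dyne/cm2 and from -0.51 (MCM3) to -0.22 (MCM6) at 80 vs. 30 dyne/cm2, and 0 of 5 passed the test in either comparison. MCM6 came closest at 2 dyne/cm2 (SE 0.17, adjusted p = 0.051). MCM2 (ENSSSCG00000011624, chromosome 13, 72630378 to 72651270 on Sscrofa11.1) had 68.2, 64.7 and 53.4 CPM in donors 1, 2 and 3 at 2 dyne/cm2 and 98.0, 63.7 and 119 CPM in set 1. It had 87.0, 71.7 and 81.7 CPM in set 2 and 135, 41.6 and 48.6 CPM at 80 dyne/cm2. The groups overlapped in both comparisons, donor 2 had about the same level at 2 and 30 dyne/cm2, and the value in donor 1 at 80 dyne/cm2 was the highest of the 12. Its log2 fold change was -0.54 at 2 dyne/cm2 (SE 0.21, adjusted p = 0.124) and -0.27 at 80 dyne/cm2 (SE 0.23, adjusted p = 0.504).

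CDC45 was the gene of the list with the largest change at 2 dyne/cm2. It encodes the factor that, bound to the MCM ring and GINS, makes the active replicative helicase. CDC45 (ENSSSCG00000010122, chromosome 14, 51133111 to 51158604) had 60.9, 61.2 and 35.3 CPM at 2 dyne/cm2 and 270.1, 123 and 179 CPM in set 1. In set 2 it had 247, 176 and 138 CPM, and at 80 dyne/cm2 239.6, 179.9 and 123 CPM. All 3 libraries at 2 dyne/cm2 were below the other 9, and donor 1 had the highest value in each group at 30 and 80 dyne/cm2. Averaged over 3 donors it was 52.4 CPM (SD 14.9) at 2 dyne/cm2 against 191 CPM (SD 74.1) in set 1. The log2 fold change at 2 vs. 30 dyne/cm2 was -1.82 (standard error, SE, 0.27, adjusted p = 0.0138), and CDC45 was lower in 3 of 3 donors, by -2.13, -0.999 and -2.31 in log2(CPM + 1). It kept its call when any donor was left out and without the donor term (adjusted p = 0.0249). At 80 vs. 30 dyne/cm2 its log2 fold change was -0.03 (SE 0.09, adjusted p = 0.874).

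The partners of CDC45 in the active helicase had smaller values. The 3 GINS subunits with a row had log2 fold changes of -0.83 (GINS1, SE 0.23, adjusted p = 0.0548), -0.65 (GINS3, SE 0.18, adjusted p = 0.0522) and -0.35 (GINS4, adjusted p = 0.129) at 2 vs. 30 dyne/cm2. GINS1 (ENSSSCG00000034913, chromosome 17, 31060540 to 31076807) had 19.2, 18.2 and 12.8 CPM at 2 dyne/cm2 and 29.9, 23.3 and 37.2 CPM in set 1, with no overlap between the groups. In set 2 it had 25.7, 24.0 and 22.3 CPM, and at 80 dyne/cm2 35.1, 12.8 and 15.1 CPM. MCM10, a scaffold needed to activate the helicase, was at -0.25 (adjusted p = 0.197) at 2 dyne/cm2 and at -0.58 (SE 0.25, adjusted p = 0.191) at 80 dyne/cm2, the second lowest value of the list there.

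On the same assembly, RefSeq places CLDN5, an endothelial tight junction gene, 2885 bases beyond the end of CDC45. No row of the table was matched to CLDN5. Whether the gene model behind the CDC45 row reaches that far is not known here, and its part in the values of CDC45 was not tested.

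**Figure D4:**
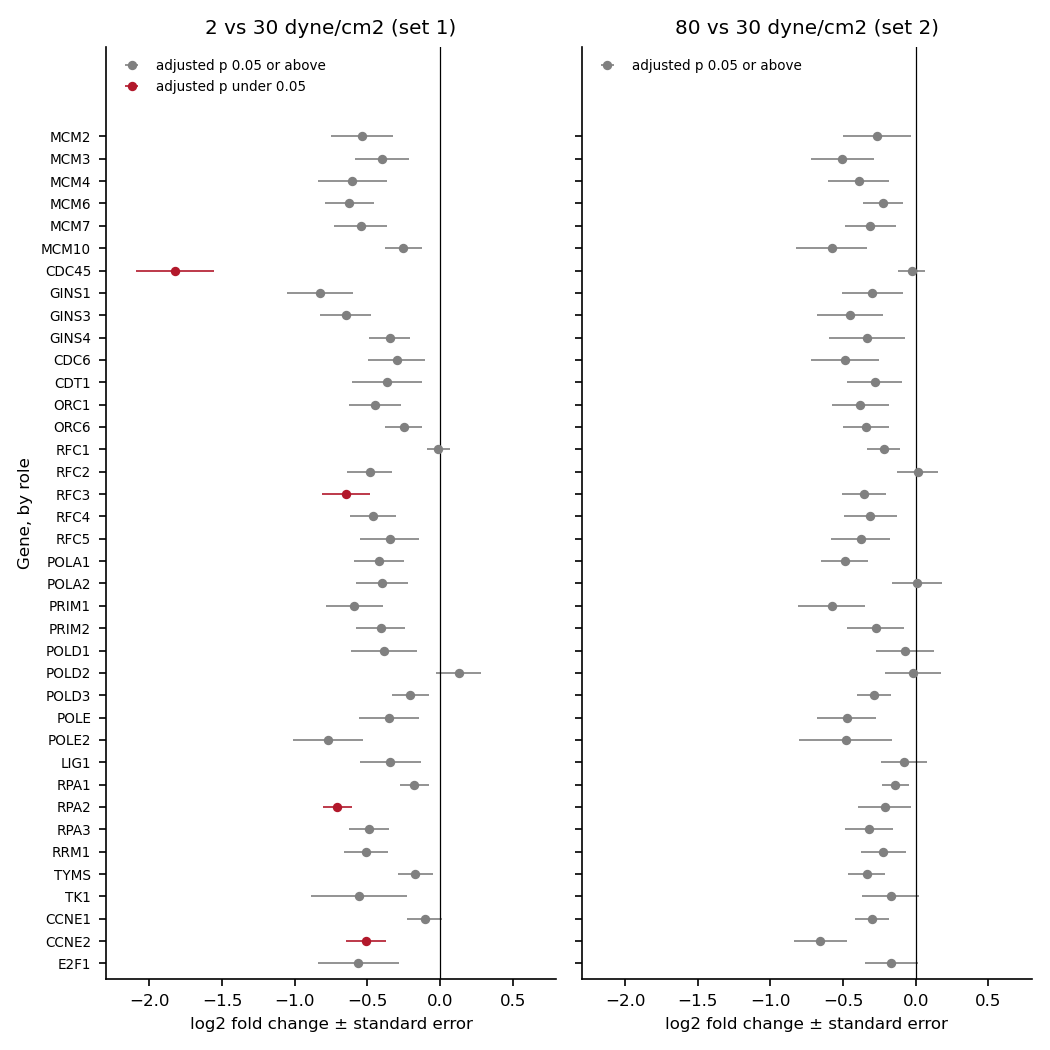
Log2 fold changes of the 38 genes (horizontal axis, with standard errors) at 2 vs. 30 dyne/cm2, left, and 80 vs. 30 dyne/cm2, right, from edgeR with a donor term; red points have an adjusted p under 0.05. CDC45 lies at -1.82 on the left and at -0.03 on the right, and 37 and 36 of the 38 points lie below 0 in the left and right panels.

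Origins are marked by the origin recognition complex and licensed by CDC6 and CDT1. None of the 4 genes of this role passed in either comparison. Their log2 fold changes ranged from -0.45 (ORC1) to -0.25 (ORC6) at 2 dyne/cm2 and from -0.49 (CDC6) to -0.28 (CDT1) at 80 dyne/cm2. ORC1 (ENSSSCG00000003861, chromosome 6, 159819302 to 159852306), the largest subunit of the complex, had 25.2, 29.4 and 19.3 CPM at 2 dyne/cm2, 31.1, 31.5 and 38.6 CPM in set 1, 27.6, 30.2 and 22.7 CPM in set 2 and 35.4, 16.6 and 13.5 CPM at 80 dyne/cm2. It lay below set 1 in every library at 2 dyne/cm2, but overlapped with set 2, whose own libraries were below set 1. CDC6 (ENSSSCG00000017471, chromosome 12, 22101281 to 22118441), which loads the helicase, had 7.05, 9.15 and 6.04 CPM at 2 dyne/cm2 and 8.69, 8.21 and 10.5 CPM in set 1. It had 7.79, 9.03 and 7.98 CPM in set 2 and 9.52, 5.20 and 3.68 CPM at 80 dyne/cm2, so donors 2 and 3 were below their controls by -0.69 and -0.94 in log2(CPM + 1) and donor 1 above by 0.26.

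The clamp loader, replication factor C, places the sliding clamp on DNA, and all 5 of its subunits had a row. RFC3 (ENSSSCG00000009349, chromosome 11, 10145927 to 10524472) was down-regulated at 2 dyne/cm2, with 7.99, 6.79 and 6.48 CPM against 11.5, 8.79 and 13.8 CPM in set 1. Its log2 fold change was -0.65 (SE 0.17, adjusted p = 0.0455), and it was lower in 3 of 3 donors. The call was lost without the donor term (adjusted p = 0.0944) and when donor 1, 2 or 3 was left out (adjusted p = 0.122, 0.0655 and 0.116). In set 2 RFC3 had 11.2, 9.84 and 11.2 CPM, and at 80 dyne/cm2 11.9, 6.39 and 7.11 CPM (log2 fold change -0.36, adjusted p = 0.189). RFC1 (ENSSSCG00000008788, chromosome 8, 30552369 to 30635932), the large subunit, had 72.5, 65.2 and 62.7 CPM at 2 dyne/cm2 and 71.2, 62.6 and 70.7 CPM in set 1. It had 70.8, 71.0 and 68.0 CPM in set 2 and 71.5, 45.1 and 62.1 CPM at 80 dyne/cm2, where donor 2 lay furthest below its control, and its log2 fold changes were -0.01 (adjusted p = 0.914) and -0.22 (adjusted p = 0.265). RFC2, RFC4 and RFC5 had log2 fold changes of -0.48, -0.46 and -0.35 at 2 dyne/cm2 and of 0.01, -0.31 and -0.38 at 80 dyne/cm2, none past the threshold.

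Primase and the polymerases lay the primers and copy the strands. None of the 9 genes passed in either comparison, and their log2 fold changes ranged from -0.77 (POLE2) to 0.13 (POLD2) at 2 dyne/cm2 and from -0.58 (PRIM1) to 0.01 (POLA2) at 80 dyne/cm2. POLA1 (ENSSSCG00000022240, chromosome X, 20756674 to 21064265), the catalytic subunit that extends the primers, had 20.7, 19.5 and 14.7 CPM at 2 dyne/cm2 and 24.8, 21.0 and 28.4 CPM in set 1, with no overlap. It had 25.3, 24.95 and 21.7 CPM in set 2 and 26.4, 12.8 and 13.5 CPM at 80 dyne/cm2 (log2 fold change -0.49, SE 0.16, adjusted p = 0.108). POLE (ENSSSCG00000033051, chromosome 14, 22798146 to 22852818), the catalytic subunit of the leading strand polymerase, had 51.8, 53.3 and 41.3 CPM at 2 dyne/cm2 and 60.1, 49.4 and 82.3 CPM in set 1. Its 60.2, 60.6 and 52.6 CPM in set 2 stood against 73.1, 29.1 and 31.1 CPM at 80 dyne/cm2, so donor 1 was above its control and donors 2 and 3 had the lowest levels of the 12 libraries. POLD1 (ENSSSCG00000003216, chromosome 6, 55247799 to 55272087), the catalytic subunit of the lagging strand polymerase, had 27.9, 31.9 and 23.5 CPM at 2 dyne/cm2, 35.8, 27.8 and 48.4 CPM in set 1, 32.2, 33.7 and 30.8 CPM in set 2 and 51.6, 23.2 and 22.1 CPM at 80 dyne/cm2. The groups of POLD1 overlapped in both comparisons, with log2 fold changes of -0.39 (adjusted p = 0.251) and -0.08 (adjusted p = 0.844).

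LIG1 (ENSSSCG00000003128, chromosome 6, 53620483 to 53660020), the ligase that joins Okazaki fragments, had, like POLD1, its highest level of the 12 libraries in donor 1 at 80 dyne/cm2. It had 26.4, 28.6 and 22.4 CPM at 2 dyne/cm2, 30.7, 26.2 and 44.5 CPM in set 1, 33.0, 30.4 and 28.0 CPM in set 2 and 46.6, 23.1 and 20.4 CPM at 80 dyne/cm2. Neither its value at 2 dyne/cm2 (-0.34, adjusted p = 0.266) nor that at 80 dyne/cm2 (-0.08, adjusted p = 0.782) passed the test.

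Replication protein A coats the single strands that the helicase exposes. RPA2 (ENSSSCG00000003583, chromosome 6, 85032604 to 85045899), its middle subunit, was down-regulated at 2 dyne/cm2 with the smallest spread of the called genes. It had 20.1, 19.9 and 20.3 CPM at 2 dyne/cm2 and 29.5, 32.3 and 38.3 CPM in set 1. The groups did not overlap, and all 3 libraries at 2 dyne/cm2 were also below the 26.3, 30.3 and 27.4 CPM of set 2. The log2 fold change was -0.71 (SE 0.10, adjusted p = 0.0123), with a lower value in 3 of 3 donors, and the call held when any donor was left out and without the donor term (adjusted p = 0.0267). RPA2 at 80 dyne/cm2 had 34.1, 16.7 and 22.7 CPM (log2 fold change -0.21, adjusted p = 0.495). RPA1 (ENSSSCG00000017822, chromosome 12, 48009652 to 48048744), the large subunit, had 107, 99.7 and 92.6 CPM at 2 dyne/cm2 and 107.9, 107.8 and 126 CPM in set 1. Its log2 fold change of -0.18 (adjusted p = 0.237) was smaller than that of RPA2, although its groups did not overlap either. It had 105.6, 107.8 and 104 CPM in set 2 and 115, 83.2 and 85.7 CPM at 80 dyne/cm2. RPA3, the small subunit, was at -0.49 (SE 0.14, adjusted p = 0.056) at 2 dyne/cm2 and at -0.32 (adjusted p = 0.26) at 80 dyne/cm2.

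Nucleotides for replication come from ribonucleotide reductase, thymidylate synthase and thymidine kinase. RRM1, the large subunit of the reductase, had a log2 fold change of -0.51 (SE 0.15, adjusted p = 0.064) at 2 dyne/cm2 and of -0.22 (adjusted p = 0.399) at 80 dyne/cm2. TYMS (ENSSSCG00000040678, chromosome 6, 105642730 to 105660279), which makes thymidylate, had 84.5, 144 and 125 CPM at 2 dyne/cm2, 95.1, 134 and 176 CPM in set 1, 101, 174 and 185 CPM in set 2 and 108, 104 and 134 CPM at 80 dyne/cm2. Donor 1 had the lowest TYMS level in each group at 2 and 30 dyne/cm2, and the groups overlapped in both comparisons, with log2 fold changes of -0.17 (adjusted p = 0.321) and -0.34 (adjusted p = 0.152). TK1 (ENSSSCG00000037120, chromosome 12, 3785997 to 3794824), the thymidine kinase of dividing cells, had 38.8, 43.5 and 30.2 CPM at 2 dyne/cm2, 57.1, 34.8 and 84.5 CPM in set 1, 52.5, 47.0 and 56.7 CPM in set 2 and 77.8, 30.7 and 37.9 CPM at 80 dyne/cm2. The 3 donors of TK1 did not share a direction in either comparison, and its log2 fold changes were -0.56 (SE 0.33, adjusted p = 0.252) and -0.17 (SE 0.19, adjusted p = 0.611).

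Cyclin E, encoded by CCNE1 and CCNE2, activates CDK2 to drive cells from G1 into S, and E2F1 activates genes of this programme. CCNE2 (ENSSSCG00000006095, chromosome 4, 41802090 to 41821870) was down-regulated at 2 dyne/cm2, with 7.66, 10.4 and 7.52 CPM against 11.9, 12.2 and 12.3 CPM in set 1. The log2 fold change was -0.51 (SE 0.14, adjusted p = 0.0498), lower in 3 of 3 donors. This call lay at the threshold and was lost without the donor term (adjusted p = 0.0824), without the filter (adjusted p = 0.0537), with at least 10 counts required in every library (adjusted p = 0.0504) and when donor 1, 2 or 3 was left out (adjusted p = 0.243, 0.0537 and 0.145). CCNE2 was also the 1 gene of the list whose libraries at 80 dyne/cm2 (10.2, 6.27 and 6.84 CPM) all lay below their controls in set 2 (11.08, 14.9 and 11.2 CPM), as 7.92% of all genes did. Its log2 fold change there was -0.66 (SE 0.18, adjusted p = 0.0688), the lowest of the list.

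CCNE1 (ENSSSCG00000002855, chromosome 6, 39919541 to 39933224) had 9.37, 13.8 and 9.63 CPM at 2 dyne/cm2 and 10.9, 12.8 and 11.5 CPM in set 1, which overlapped (log2 fold change -0.11, adjusted p = 0.536). Its 9.82, 14.3 and 8.71 CPM in set 2 and 9.11, 9.96 and 6.81 CPM at 80 dyne/cm2 gave -0.30 (adjusted p = 0.162). E2F1 (ENSSSCG00000007268, chromosome 17, 37178587 to 37190118) had 10.8, 12.3 and 12.03 CPM at 2 dyne/cm2 and 16.8, 10.5 and 29.4 CPM in set 1, where donor 3 was far above the others. It had 15.9, 15.0 and 19.7 CPM in set 2 and 22.04, 10.2 and 13.7 CPM at 80 dyne/cm2. Its log2 fold changes were -0.56 (SE 0.28, adjusted p = 0.192) and -0.17 (adjusted p = 0.594).

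**Figure D5:**
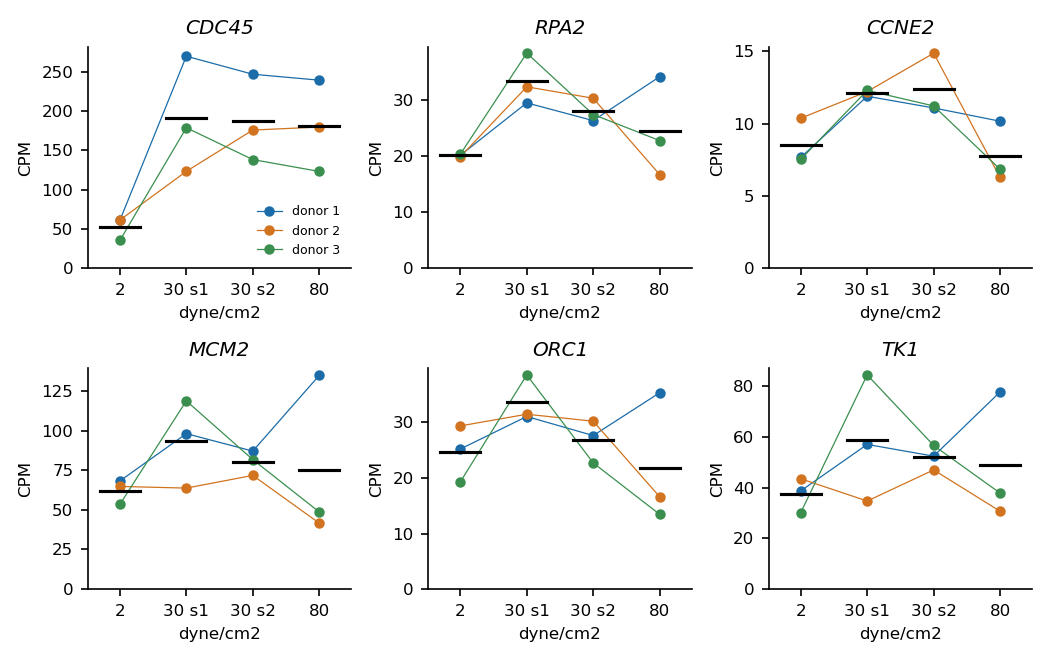
CPM (vertical axes, from 0) of 6 genes in each library by shear stress in dyne/cm2, where s1 and s2 are set 1 and set 2; coloured points joined by lines are donors and black bars are means of 3 donors. CDC45 is low at 2 dyne/cm2 alone, RPA2 lies at 19.9 to 20.3 CPM at 2 dyne/cm2, and in MCM2, ORC1 and TK1 donor 1 is higher and donors 2 and 3 are lower at 80 dyne/cm2 than in set 2.

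A gene called in one comparison and not in the other need not differ between them, so the difference between the responses was fitted over all 12 libraries. CDC45 was the 1 gene of the list for which the response to 2 dyne/cm2 differed from that to 80 dyne/cm2, by -1.82 (SE 0.29, adjusted p = 0.0015), or by -1.83 without the donor term (adjusted p = 0.0323). In this fit 17.9% of all 11568 genes were called in the same direction and 19.3% in the opposite one. For the other 37 genes the adjusted p ranged from 0.155 (RPA2, -0.52, SE 0.27) to 0.986 (RFC5, -0.01, SE 0.36), and the standard errors ran from 0.14 to 0.45. Small differences between the responses were not detectable with 3 donors, and these p-values do not show that the responses were alike.

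Another 50 genes of the replication fork and S phase were listed by role beside the 38. Of the 44 tested, 3 were down-regulated at 2 vs. 30 dyne/cm2 (12.4% of all genes were): WDHD1 (-0.58, adjusted p = 0.0218), which couples helicase and polymerase, CLSPN (-0.94, adjusted p = 0.0281), the checkpoint mediator claspin, and GMNN (-0.54, adjusted p = 0.0198), the licensing inhibitor geminin. POLD4, the small subunit of polymerase delta (1.18, adjusted p = 0.0198), and ORC4, a subunit of the origin recognition complex (0.76, adjusted p = 0.027), were up-regulated, which makes 2 of 44 against 13.4% of all genes. The median was -0.38, and 0 of 44 passed at 80 vs. 30 dyne/cm2 in the edgeR fit, with a median of -0.32. By donor the medians of this list at 80 dyne/cm2 were 0.20, -0.69 and -0.42.

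The mitotic genes, expressed later in the cycle, showed the same order of donors. All 30 mitosis genes tested had a negative log2 fold change at 2 dyne/cm2 (49.8% of all genes had), with a median of -0.73. Between the sets at 30 dyne/cm2, again with set 1 subtracted, 27 of the 30 were negative too. In the edgeR fits 0 of 30 passed at 2 or 80 dyne/cm2 (lowest adjusted p 0.0539 and 0.162). Of all genes, 12.4% and 4.04% were lower there and 13.4% and 4.36% higher. At 80 dyne/cm2 the medians of the mitosis genes by donor were 0.48, -0.81 and -0.51, and all 30 were higher in donor 1.

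Regulators that act upstream of S phase changed in both directions. CDKN1B, the CDK inhibitor p27, was up-regulated at 2 dyne/cm2 (51.6, 43.5 and 71.3 CPM against 17.7, 23.1 and 21.5 CPM; log2 fold change 1.41, SE 0.19, adjusted p = 0.0112) and down-regulated at 80 dyne/cm2 (21.6, 16.3 and 29.4 CPM against 27.6, 26.8 and 39.1 CPM; -0.46, SE 0.10, adjusted p = 0.0311). RBL2, the pocket protein p130 that represses E2F targets in resting cells, had the same pair of directions (0.87, adjusted p = 0.0171, and -0.52, adjusted p = 0.014). Both rose at 2 vs. set 1 and fell at 80 vs. set 2 in 3 of 3 donors. With the other set as control, both still rose at 2 dyne/cm2 (CDKN1B 0.86, adjusted p = 0.00661; RBL2 0.52, adjusted p = 0.0263), but neither was called at 80 dyne/cm2, where CDKN1B turned to 0.0898 (adjusted p = 0.87) and RBL2 was at -0.18 (adjusted p = 0.604). All 3 cyclin D genes, whose products start the passage through G1, were down-regulated at 2 dyne/cm2: CCND1 by -0.69 (adjusted p = 0.0278), CCND2 by -0.32 (adjusted p = 0.0484) and CCND3 by -0.36 (adjusted p = 0.0327). With set 2 as the control CCND3 kept its call (-0.41, adjusted p = 0.0217), while CCND1 was at 0.022 (adjusted p = 0.885) and CCND2 at -0.17 (adjusted p = 0.226). CDKN2D, the CDK inhibitor p19, also fell (-0.90, adjusted p = 0.0399). CDKN1A, the CDK inhibitor p21, rose at 80 vs. set 2 (0.48, adjusted p = 0.0271) but not against set 1 (0.07, adjusted p = 0.925). In all, 5 of 11 genes of the list of CDK inhibitors and cyclins D passed at 2 dyne/cm2, 4 lower and 1 higher (12.4% and 13.4% of all genes), and 2 of 12 at 80 dyne/cm2, 1 lower and 1 higher (4.04% and 4.36%).

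Among 15 genes of the E2F and RB family, 3 were lower at 2 dyne/cm2 and 2 higher, against 12.4% and 13.4% of all genes. RBL1, the pocket protein p107 and itself an E2F target, fell (-0.60, adjusted p = 0.0238), as did LIN9 (-0.69, adjusted p = 0.0366) and LIN54 (-0.48, adjusted p = 0.0421), subunits of the complex that represses or activates cell cycle genes. TFDP2, a dimerization partner of E2F, rose (1.06, adjusted p = 0.0322), as did RBL2. RBL2 was the 1 gene of this family past the threshold at 80 dyne/cm2. Of the 15 genes of these 3 lists called at 2 dyne/cm2, 12 were called with set 2 as the control, 9 without the donor term and 4 (CLSPN, POLD4, CDKN1B and RBL2) with each donor left out in turn. The 3 called at 80 dyne/cm2 lost their calls against set 1, without the donor term and with donor 2 or donor 3 left out, and kept them without donor 1. KLF2, a transcription factor induced by laminar flow, served as a check on the label of 2 dyne/cm2 alone. It had 2.71, 12.4 and 8.28 CPM at 2 dyne/cm2, 150.4, 111 and 167 CPM in set 1 and 183, 117 and 160.4 CPM in set 2. At 80 dyne/cm2 KLF2 had 231, 175 and 199 CPM, which overlapped with set 2.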

How the data were processed

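RNA of 12 cultures was sequenced as single-end reads. The authors aligned them to Sscrofa11.1 with STAR 2.4, dropped those with several locations and assigned the rest to exons with featureCounts 1.4.6. The deposited values are raw counts of 21153 genes. In every library 3718 genes were at 0, and 14572 (68.9%) matched a symbol. Positions are those of RefSeq on the same assembly.

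edgeR 4.0.16 in R 4.3.3 served for the tests, with TMM factors, the quasi-likelihood F test and Benjamini-Hochberg adjustment over all genes tested. A gene was tested where 3 or more of the 6 libraries reached 1 CPM. The study filtered at 1 RPKM, which needs gene lengths not used here. Cultures of one donor and passage were compared in the study, so each fit had a donor term (replicate block), taken from the replicate numbers and donor letters of the labels. With group means removed, same-numbered libraries correlated at 0.67 to 0.88 (18 pairs, 11568 genes) and differently numbered ones at -0.55 to -0.19 (36 pairs). Genes were called at an adjusted p under 0.05; the study's thresholds also ask for a 2-fold change. SE were taken from the fold change and its F statistic. CPM are per total counts on genes, and differences by donor are of log2(CPM + 1).

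Values in every library are given for called genes and for 1 gene per role. The members and lists were chosen with earlier results of these data known. Alternatives were relative log expression normalization, DESeq2 1.42.0, other filters, no donor term, all 12 libraries in 1 fit, the other set at 30 dyne/cm2 and each donor left out. The procedure was also run on simulated data with the same change in every donor, which does not cover donors that move in opposite directions.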

Additional observations from a re-analysis of the deposited data

Results flagged for a closer look

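CDC45, the helicase activator, was flagged because its response to 2 dyne/cm2 differed from its response to 80 dyne/cm2 in a test of the difference itself. The difference between the log2 fold changes was -1.82 (standard error 0.29, adjusted p = 0.0015, edgeR quasi-likelihood test over 12 libraries). In the separate fits of 6 libraries CDC45 had -1.82 at 2 dyne/cm2 and -0.03 at 80 dyne/cm2. It ranged from -2.10 to -1.63 when a donor was left out.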

How the results depend on the processing

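The count of replication genes down-regulated at 2 vs. 30 dyne/cm2 (4 as reported) was 11 with DESeq2, where 14.5% of all genes were lower. It was 9 with all 12 libraries in 1 fit (19.5%), 15 with set 2 as the control (13.0%) and 2 without the replicate block (5.99%). CDC45 and RPA2 were called under each of these and with each donor left out, where the count ran from 2 to 3 (6.33% to 8.16% of all genes). At 80 vs. 30 dyne/cm2 (0) the count was 1 without the filter (4.21% of all genes) and 1 with DESeq2 (4.69%), both times CCNE2. It ran from 0 to 31 with a donor left out, the 31 without donor 1 (9.45%). For the difference between the responses (1) it ran from 1 to 2.

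Over all genes, the calls at 2 dyne/cm2 (2895) numbered 1244 without the replicate block, 4586 with all 12 libraries and 1389 to 1799 with a donor left out. At 80 dyne/cm2 (940) they numbered 0 without the replicate block, 380 with all 12 libraries, 26 with set 1 as the control and 183 to 2042 with a donor left out. Between the sets at 30 dyne/cm2 (2) there were 161 without the filter, 467 with DESeq2, 0 without the replicate block, 0 with all 12 libraries and 0 to 144 with a donor left out. For the difference between the responses (4294) there were 1746 without the replicate block and 1949 to 3299 with a donor left out. The replicate block lowered the biological coefficient of variation from 27.6% to 15.5% at 2 dyne/cm2 and from 29.4% to 11.4% at 80 dyne/cm2.

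The median over the list kept its sign with each donor left out, at -0.63 to -0.22 at 2 dyne/cm2 and -0.62 to -0.13 at 80 dyne/cm2, but between the sets at 30 dyne/cm2 it ran from -0.23 to 0.0321, positive without donor 3. Without CDC45, an alternative chosen after seeing its values, the medians of the 3 donors were -0.37, -0.05 and -0.89 at 2 dyne/cm2. The direction of some genes turned. At 2 dyne/cm2 RFC1 ran from -0.0359 to 0.036 with a donor left out and CCNE1 was 0.0355 and CCND1 0.022 against set 2. At 80 dyne/cm2 CDC45 ran from -0.12 to 0.0131, RFC2 from -0.21 to 0.16, POLA2 from -0.27 to 0.19, POLD1 from -0.43 to 0.0948, POLD2 from -0.29 to 0.12, LIG1 from -0.35 to 0.0701 and RPA2 from -0.48 to 0.0422; RFC2 was -0.13 and POLA2 -0.36 against set 1, where CDKN1B was 0.0898, and POLD1 was 0.013 without the replicate block. The cause was not tested.

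In the comparisons that use 6 libraries, leaving a donor out leaves 1 residual degree of freedom per gene. In the fits with a donor term, p-values weigh the mean difference within 3 donors against its variation over these cultures. The lowest count of a replication gene in any library was 39, in POLE2.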

Other observations

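Some cell cycle genes outside the list differed between the responses to 2 and 80 dyne/cm2 (edgeR quasi-likelihood test with a donor term over 12 libraries). The differences are from this joint fit and the separate log2 fold changes from the fits of 6 libraries. BRCA2, which guards stalled forks, had 0.30 at 2 and -0.60 at 80 dyne/cm2, with a difference of 0.89 (standard error 0.24, adjusted p = 0.0175). UNG, which removes uracil from DNA, had 0.19 and -0.62, a difference of 0.79 (standard error 0.27, adjusted p = 0.047). ORC4 and POLD4, up-regulated at 2 dyne/cm2, differed by 1.06 (adjusted p = 0.0019) and 1.51 (adjusted p = 0.0018). MYBL2, a transcription factor of late cell cycle genes, had -0.89 and 0.43, a difference of -1.41 (standard error 0.47, adjusted p = 0.0392). The calls of BRCA2, UNG and MYBL2 were lost with some donors left out, where the highest adjusted p were 0.118, 0.281 and 0.158. In MYBL2 the libraries at 80 dyne/cm2 had 281, 90.8 and 118 CPM against 123, 93.5 and 113 CPM in set 2, so donor 1 was far above the other libraries. CDKN1B differed by 1.86 (standard error 0.22, adjusted p = 0.000318) and RBL2 by 1.403 (standard error 0.17, adjusted p = 0.000412). Each of these differences includes any gap between the sets at 30 dyne/cm2. Mean levels in set 1 and set 2 were 20.8 and 31.2 CPM in CDKN1B and 36.8 and 47.3 CPM in RBL2. In POLD4 the means were 34.6 and 45.1 CPM, and in MYBL2 143 and 110 CPM. The difference was not fitted with the sets exchanged.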
